A study of Mus musculus with 2 samples.

Results

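Ion channel subunit genes were described in mouse EB cells and mouse ES cells. Genes were taken as members by name: any gene whose symbol starts as those of the potassium, calcium, sodium, TRP, chloride, anoctamin, HCN, Piezo and acid-sensing channels, the ligand-gated receptor channels, the calcium release and store-operated channels, or the aquaporins do. The account covers 103 such genes, read by 130 probes, among 8100 named genes of the array; they are 35.6% of 289 mouse genes with such symbols in the RefSeq table. The choice used names and no measured values. Because it works by name it also takes in proteins that form no channel of their own, and 23 of the 103 were set aside as auxiliary or associated. The other 80 were counted as pore-forming, among them the chloride-proton exchanger Clcn3.

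EB cells at day 4 were compared with ES cells at day 0, with 1 array of total RNA each. The labels name the cells as mouse EB and ES cells and give no strain, line, medium or treatment; EB commonly stands for embryoid body, the aggregate in which ES cells differentiate once the factors that hold them undifferentiated are withdrawn. According to the labels the arrays accompanied a sequencing experiment, not used here. With 1 sample per group no test across samples was possible, culture and array cannot be told apart from day, and every difference describes these 2 arrays.

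Ion channels are membrane proteins that open a path for ions along their gradient when voltage, a ligand, stretch or a store signal changes. Most are built from pore-forming subunits, which select the ion, and auxiliary subunits, which have no pore and set trafficking or gating. Voltage-gated and transmitter-gated channels are best known from nerve and muscle, whereas intracellular chloride transport, calcium release and mechanically gated channels are used by many dividing cells.

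A probe's signal is the mean brightness of its beads, here after quantile normalization of both arrays. A median of 37 beads in EB and 38 in ES lay behind each signal. A probe was counted as above background in EB at a detection score over 0.99, which corresponded to a normalized signal of 230.0, and in ES, whose file has no score, at the same signal. This signal is called the floor. Of all 46643 probes 28.4% in EB and 28.4% in ES exceeded it. Quantile normalization with a common floor makes these shares equal by construction, so their equality is no result. Marker genes were looked up from lists made with earlier results of these data known, so they give no independent check of the labels. Of 9 named pluripotency genes, 4 exceeded the floor in EB and 9 in ES, and 8 were lower in EB by 2-fold or more. Of 3 named genes of the primitive streak, 3 were higher in EB. An error given beside a log2 difference below is the bead-level one, which covers measurement within the arrays and no variation between cultures. In bulk RNA such as this, fewer cells of a type and less RNA per cell cannot be told apart.

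Most channel genes gave no signal over background in either sample. Of the 103 members 12 exceeded the floor in EB (11.7%) and 11 in ES (10.7%), beside 44.5% and 44.1% of all named genes. Among the members 8 did so in both, 4 in EB alone and 3 in ES alone, so 15 were detected and 88 were not. Of the 3866 detected named genes 3313 exceeded the floor in both, 295 in EB alone and 258 in ES alone. Detection in at least 1 sample thus reached 14.6% of the channel genes, beside 47.7% of all named genes. Among pore-forming members 7 of 80 (8.75%) were detected, and among auxiliary or associated members 8 of 23 (34.8%). A signal under the floor does not show that a transcript was absent, only that this probe did not register it.

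**Figure D1:**
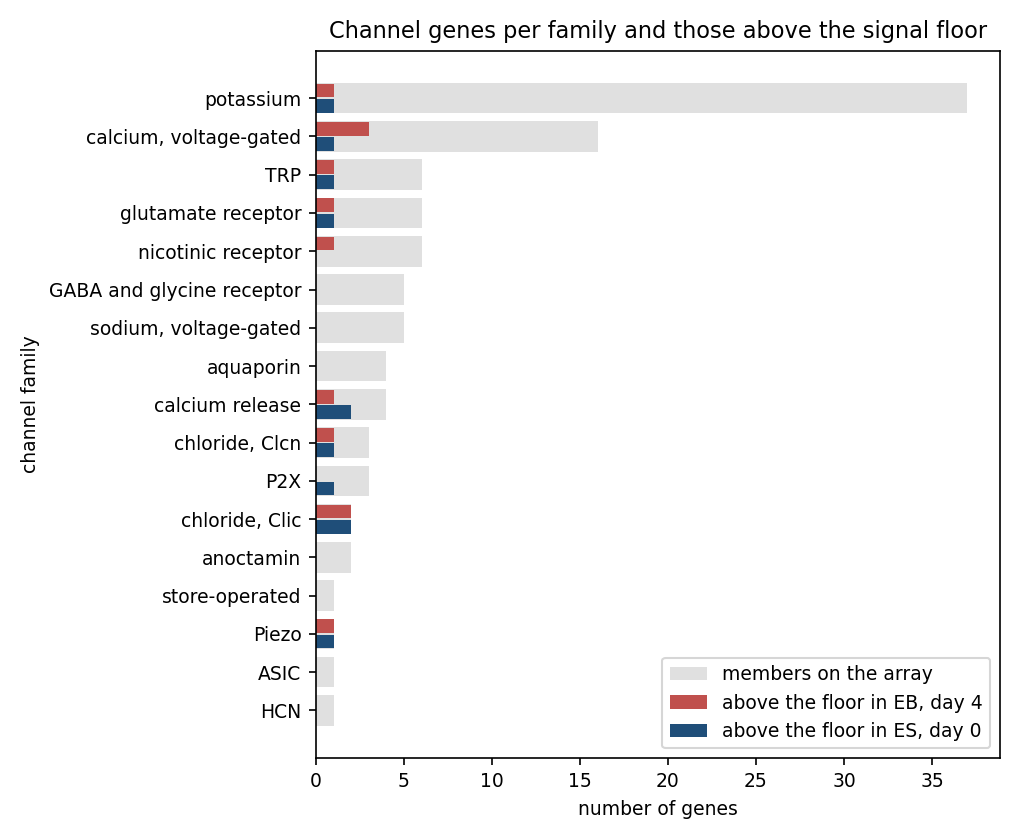
Number of channel genes per family (grey bars), with those above the signal floor in EB (red) and in ES (blue). In the potassium family, 1 of 37 genes exceeded the floor in each sample, and in 7 families none did in either.

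The undetected genes included whole groups of potassium, calcium and sodium channels. None of the 12 voltage-gated potassium pore subunits, among them Kcna1, Kcnq1 and Kcnd2, exceeded the floor, with signals of 132 to 226 in EB and 120 to 197 in ES. The 6 inward rectifiers of the Kcnj family lay between 134 and 187 in EB and between 151 and 200 in ES. The 6 Cacna1 genes, which encode the pores of voltage-gated calcium channels, gave 132 to 226 in EB and 135 to 203 in ES. Sodium channels did the same, with 5 of 5 genes under the floor in both samples.

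Receptors for transmitters gave a like picture. The AMPA receptor genes Gria1, Gria2 and Gria3 had signals of 149 to 176 in EB and 158 to 163 in ES, and the NMDA receptor genes Grin1 and Grin2d 165 and 153 in EB, against 165 and 166 in ES. All 4 GABA receptor genes, the glycine receptor gene Glra1 and 5 of 6 nicotinic receptor genes were under the floor in both. So were the 5 Trpm genes, the 4 aquaporins Aqp4, Aqp6, Aqp7 and Aqp9, the 2 anoctamins, Asic4, Hcn3 and the calcium entry gene Orai2.

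The differences of these 88 genes describe pairs of signals that both lay under the floor. That choice limits how large a difference can be, and some of these signals may be more than background. They ran from -0.62 (Cacna1a) to 0.40 (Glra1) on the log2 scale, EB minus ES, with a median of -0.01. For the 4234 named genes that were not detected, 95% of the differences lay between -0.37 and 0.38. Cacna1c, the pore of the cardiac L-type channel, had a signal of 226 in EB, just under the floor, and 181 in ES, and its second probe gave 153 in EB and 132 in ES.

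Of the 15 detected members 2 passed a 2-fold size rule (an absolute log2 difference of at least 1), which is 13.3%, beside 9.05% of the 3866 detected named genes. They were Clic6 and Kcnmb4, both higher in EB, beside 3.72% of the detected named genes that were higher and 5.33% that were lower. The median log2 difference was 0.15 over the 15, with quartiles of -0.33 and 0.73, beside 0.06 over all detected named genes, with quartiles of -0.26 and 0.35. Of the 15, 7 differed by 1.5-fold or more, beside 24.3% of the detected named genes, and 0 by 4-fold or more, beside 1.63%. The authors' deposited series table, normalized in a way not stated, put 6 past the 2-fold rule, beside 25.7% of the detected named genes. Its bright signals were lower than those here by a like amount in both samples, as after background subtraction. No background was subtracted here, which shrinks differences of dim probes. Members detected in 1 sample alone entered through the sample in which they are bright, so these counts describe the detected genes and not the whole family.

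**Figure D2:**
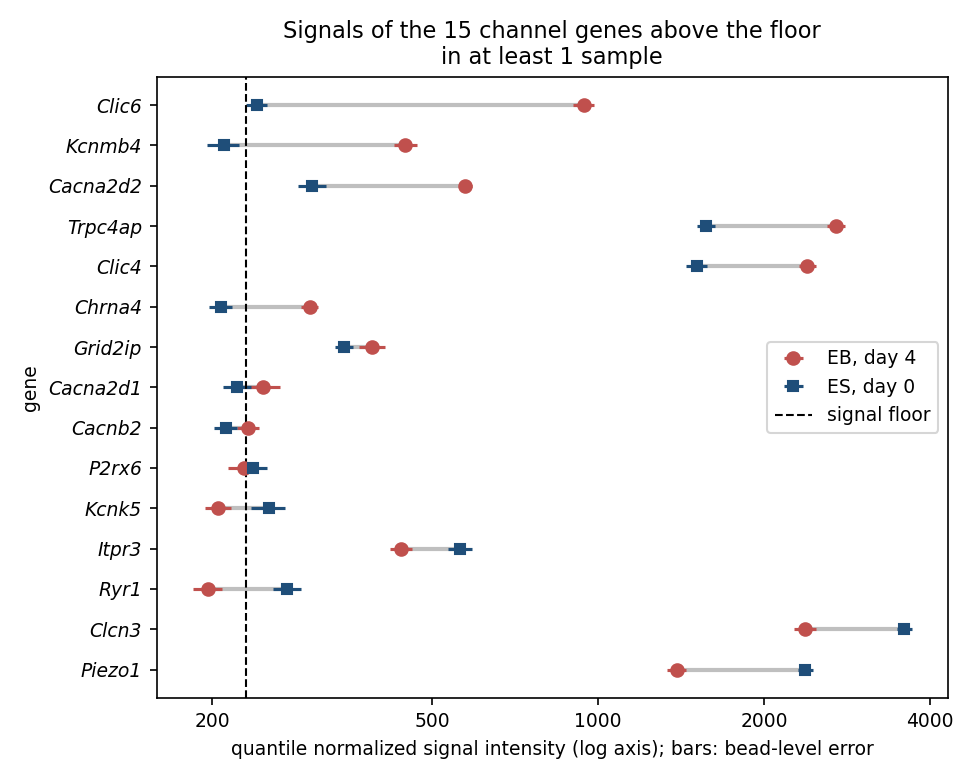
Normalized signal on a log axis for the 15 detected channel genes in EB (red circles) and ES (blue squares), with bead-level error bars and the floor as a dashed line. Clic6 has the widest gap between the samples, and 7 genes have 1 sample under the floor.

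Clic6 had the largest rise among the channel genes. It belongs to the chloride intracellular channel family, proteins that occur in soluble and membrane-bound forms and whose role as channels in cells is debated. Its probe (scl0209195.6_234-S) was read at 944 in EB and 241 in ES, where it lay just over the floor. The EB signal was 3.92-fold higher (log2 difference 1.97 ± 0.09), and the series table gave a larger log2 difference of 3.70. Among all 3866 detected named genes 26 had a larger positive difference.

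Clic4, the other Clic gene among the members, is a widely made protein linked to membrane traffic and tubule formation. Its brightest probe was read at 2397 in EB and 1510 in ES, 1.59-fold higher (log2 difference 0.67 ± 0.08). The 2 further probes of Clic4 were also higher in EB, with signals of 452 against 310 and of 555 against 465. Their log2 differences of 0.55 and 0.25 were smaller, so the 3 probes shared a direction and not a size, and none passed the 2-fold rule.

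Clcn3, a chloride-proton exchanger of endosomes and synaptic vesicles, was read alike by both of its probes. The signals were 2376 in EB and 3594 in ES for the first, and 1222 in EB and 1876 in ES for the second. The log2 differences were -0.60 ± 0.08 and -0.62 ± 0.06, and the first probe's signal was 1.51-fold lower in EB. Clcn1 and Clcn4 were under the floor in both samples.

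Kcnmb4 was the one potassium channel gene above the floor in EB. It encodes an auxiliary beta subunit of the large-conductance calcium-activated potassium channel, found mainly in neurons. Its signal was 448 in EB and 210 in ES, under the floor, so it was at least 1.95-fold higher (measured log2 difference 1.09 ± 0.12). With signals set to the floor the difference was 0.96 and no longer passed the rule, and the series table gave a log2 difference of 2.99. Kcnma1, which encodes the pore that this subunit joins, gave 153 in EB and 157 in ES by its brighter probe and was not detected. The antisense gene Kcnmb4os1 gave 173 in EB and 146 in ES, also under the floor. Of 9 named neural genes 2 exceeded the floor in EB (Nes and Nefm) and 2 in ES (Nes and Tubb3), and 0 were higher or lower by 2-fold. Nefm had 237 in EB and 163 in ES, under the floor, while Snap25, Syt1, Map2 and Rbfox3 lay under the floor in both samples. The part of neural cells in the Kcnmb4 value was not tested.

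Kcnk5, a background potassium channel sensitive to pH, was the one potassium gene above the floor in ES. Its signal was 205 in EB and 253 in ES by the brighter probe, and its second probe gave 217 in EB and 196 in ES, both under the floor. The 2 probes differ in sign, and no direction was taken from them.

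Calcium channel genes were detected through their auxiliary subunits. Cacna2d2, an extracellular subunit that raises the number of calcium channels at the membrane, had a signal of 575 in EB and 303 in ES. This 1.89-fold difference (log2 difference 0.92 ± 0.09) lay just outside the 2-fold rule, as Kcnmb4 lay just inside, and it passed with the series table (log2 difference 1.70) and with normexp background correction (log2 difference 1.08). Cacna2d1, of the same subfamily, gave 247 in EB and 222 in ES, and Cacnb2, a cytoplasmic beta subunit, 232 in EB and 211 in ES. Both crossed the floor in EB by small margins. Their differences of 0.15 and 0.14 lay within the range that held 95% of the undetected named genes, a range that the floor limits. As given above, 0 of 6 pore genes of these channels were detected.

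Of the genes that release calcium from the endoplasmic reticulum, Itpr3, a receptor for inositol trisphosphate, had 440 in EB and 563 in ES, 1.28-fold lower (log2 difference -0.36 ± 0.10). Itpr2 was under the floor in both, with 166 in EB and 160 in ES. Ryr1, the release channel of skeletal muscle, gave 196 in EB, under the floor, and 273 in ES, at least 1.19-fold lower; its difference of -0.48 was -1.83 in the series table. Ryr2, its cardiac relative, was not detected (158 in EB and 190 in ES). Among 4 named muscle genes Myl7 was higher in EB (1185 in EB against 362 in ES), Myh7 had 198 in EB, under the floor, and 314 in ES, and Myh6 and Ryr2 lay under the floor in both; whether muscle cells have a part in the calcium channel values was not tested.

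Piezo1, a stretch-gated cation channel, had a lower signal in EB. It was read at 1390 in EB and 2378 in ES, 1.71-fold lower (log2 difference -0.77 ± 0.07), which did not pass the 2-fold rule. Both signals were well over the floor, and the series table gave a log2 difference of -0.86.

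Trpc4ap, which the name rule took in, encodes a protein that binds TRPC channels and serves as an adaptor of a ubiquitin ligase. Its signal was 2707 in EB and 1572 in ES, 1.72-fold higher (log2 difference 0.78 ± 0.08). None of the 5 Trpm genes, the TRP pore genes that the name rule took in, was detected. Grid2ip, a scaffold protein of synapses that the name rule also took in, had 390 in EB and 347 in ES, with a log2 difference of 0.17.

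The remaining detected members were receptor subunits near the floor. Chrna4, a subunit of neuronal nicotinic receptors, gave 300 in EB and 207 in ES, under the floor, at least 1.30-fold higher, with a difference of 0.54 that was 1.89 in the series table. Its second probe was under the floor in both (188 in EB and 149 in ES). Its usual partner Chrnb2 was not detected, with 172 in EB and 177 in ES. P2rx6, a subunit of ATP-gated channels, gave 228 in EB and 237 in ES, a difference of -0.06, and its second probe gave 185 in EB and 126 in ES, both under the floor.

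**Figure D3:**
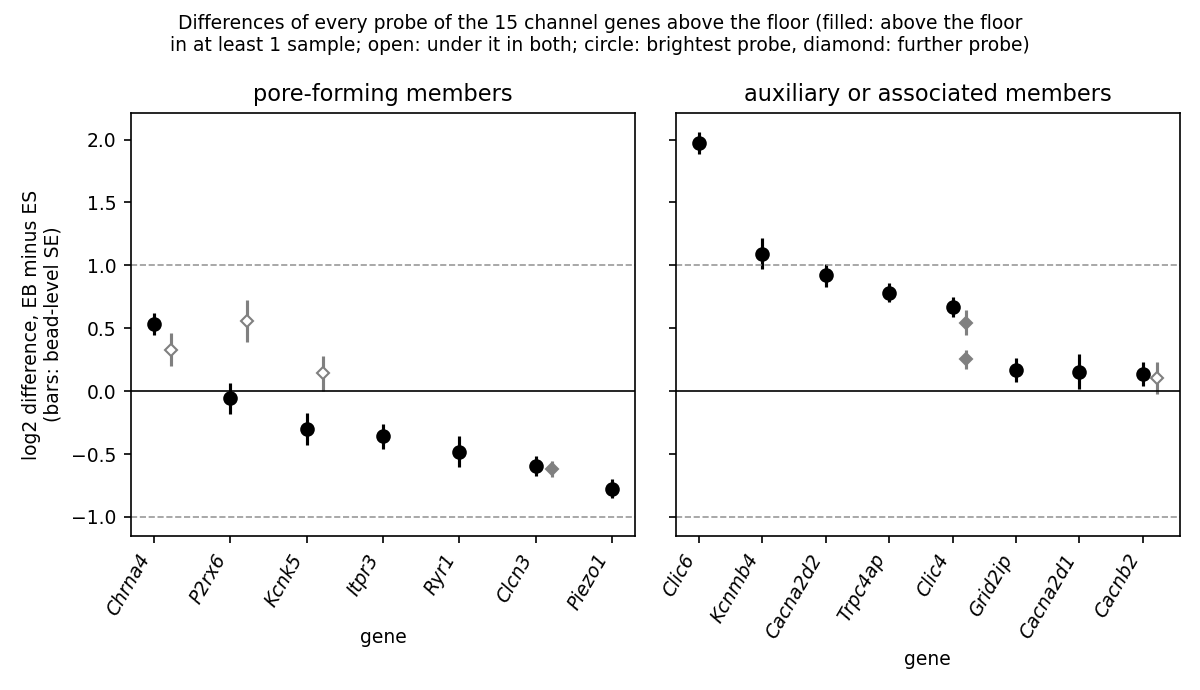
Log2 difference, EB minus ES, for every probe of the 15 detected channel genes, with bead-level standard errors and dashed lines at the 2-fold rule. Clic6 and Kcnmb4 lie past the upper dashed line, and the second probes of P2rx6 and Kcnk5 have the opposite sign to the first.

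Direction by role can be described only for members above the floor in both samples, since for the other 7 the filter on the floor fixed the sign. Of those 8 members, 5 were positive, all counted as auxiliary or associated (Clic6, Cacna2d2, Trpc4ap, Clic4 and Grid2ip). The other 3 were negative, all counted as pore-forming (Itpr3, Clcn3 and Piezo1). Of the 8, Grid2ip and Itpr3 lie between -0.37 and 0.38, the range that holds 95% of the undetected named genes. That range comes from dim signals and does not measure the spread at signals such as those of Itpr3 (440 in EB and 563 in ES), whose bead-level error was 0.10. All detected named genes had a median of 0.06, with 2141 positive and 1719 negative differences. They include 295 genes above the floor in EB alone and 258 in ES alone, whose sign the filter fixed. Signs were not counted for the 3313 named genes above the floor in both, so this is not a like comparison. The division into roles was made with results of these data known. Under another reading Clic proteins would count as pore-forming, and the exchanger Clcn3 would not.

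**Figure D4:**
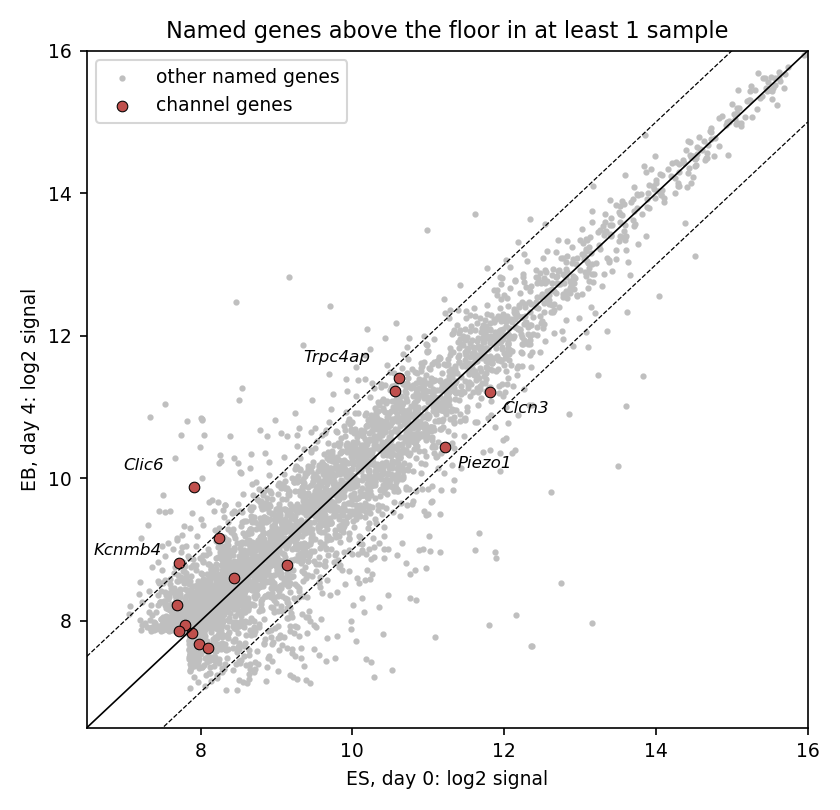
Log2 signal in EB (vertical axis) against ES (horizontal axis) for the 3866 detected named genes, with channel genes in red, the line of equality and dashed lines at 2-fold. Clic6 and Kcnmb4 lie above the upper dashed line, while Piezo1, Clcn3 and Trpc4ap lie between the lines at higher signals.

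The upstream sequence of the detected members was examined for CpG sites, the pairs that are dense in promoters of widely active genes. Sequences were the 250 bases before the start in RefSeq's table for GRCm38.p6. Of all 103 members 77 (74.8%) had a window, and of the 15 detected members 14 (93.3%) had one. With coverage this unequal, detected and undetected members were not compared. The 14 held a median of 20 CpG sites, with quartiles of 12.75 and 25.75. For the 3107 detected named genes with a window (80.4%) the median was 17, with quartiles of 11 and 23. Coverage differed between these sets too, which limits the comparison. Kcnmb4 held 43, a number reached by 234 of all 32851 windows, and P2rx6 held 3. Shown are both genes with the largest positive differences among those with a window, then Piezo1, whose difference was negative, and Ryr1, a CpG-poor gene for contrast; capitals mark CpG sites.
Kcnmb4, chr10:116473524-116473773, minus strand: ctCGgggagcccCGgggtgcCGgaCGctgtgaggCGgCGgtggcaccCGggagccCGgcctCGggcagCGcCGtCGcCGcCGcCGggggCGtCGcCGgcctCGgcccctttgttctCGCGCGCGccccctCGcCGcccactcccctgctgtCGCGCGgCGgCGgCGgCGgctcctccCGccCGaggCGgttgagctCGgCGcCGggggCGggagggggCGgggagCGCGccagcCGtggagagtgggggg
Cacna2d2, chr9:107399630-107399879, plus strand: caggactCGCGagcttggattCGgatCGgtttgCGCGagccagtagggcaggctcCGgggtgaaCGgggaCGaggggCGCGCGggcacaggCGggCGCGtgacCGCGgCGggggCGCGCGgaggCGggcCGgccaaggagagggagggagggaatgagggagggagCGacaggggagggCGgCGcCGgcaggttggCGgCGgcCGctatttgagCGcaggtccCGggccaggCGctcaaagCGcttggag
Piezo1, chr8:122551330-122551579, minus strand: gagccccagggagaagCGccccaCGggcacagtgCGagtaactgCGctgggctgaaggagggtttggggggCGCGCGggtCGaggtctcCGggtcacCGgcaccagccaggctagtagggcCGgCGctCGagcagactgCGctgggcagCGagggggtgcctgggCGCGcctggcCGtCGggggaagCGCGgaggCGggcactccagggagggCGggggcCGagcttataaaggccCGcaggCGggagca
Ryr1, chr7:29125152-29125401, minus strand: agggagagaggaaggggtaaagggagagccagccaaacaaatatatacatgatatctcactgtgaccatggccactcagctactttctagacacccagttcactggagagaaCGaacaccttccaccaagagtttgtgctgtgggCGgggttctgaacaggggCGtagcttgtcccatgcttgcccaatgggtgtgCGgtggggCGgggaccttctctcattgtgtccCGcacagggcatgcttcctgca

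The 4 windows held 43, 34, 26 and 6 CpG sites, in the order shown. The letters GGGCGG, searched on both strands, stood in the windows of 13 of the 14 members (all but Trpc4ap), beside 67.0% of the detected named genes with a window and 32.7% of all windows. TATAAA, on both strands, stood in 2 of the 14 (P2rx6 and Piezo1), beside 7.53% of the detected named genes and 12.4% of all windows. A gene counted as a match if any of its listed starts had the letters, whereas the shares of all windows count single windows. Those shares of all windows are therefore not a like comparison. The matches describe letters and no binding.

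**Figure D5:**
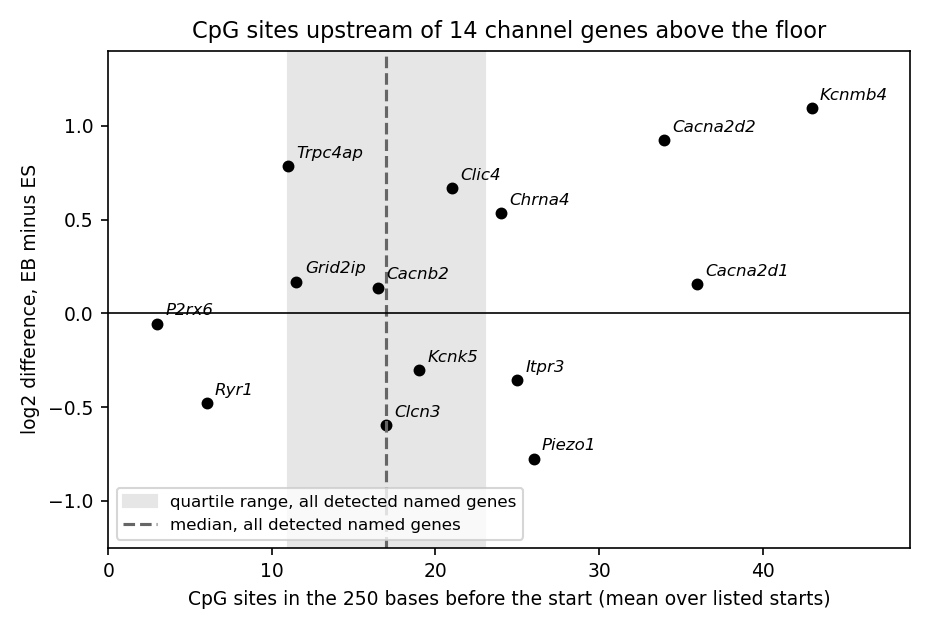
Log2 difference, EB minus ES, against the number of CpG sites in the 250 bases upstream for the 14 detected channel genes with a window; the grey band is the quartile range of all detected named genes with a window (11 to 23) and the dashed line their median of 17. Kcnmb4, Cacna2d1 and Cacna2d2 lie farthest to the right, Chrna4, Itpr3 and Piezo1 just right of the band, and Ryr1 and P2rx6 to the left of it.

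Genes that work with channels but fall outside the name rule were taken from a list of 99 pumps, junction channels, scaffolds, regulators and calcium-store proteins, of which 39 were named on the array and 25 detected. Of these 25, the 2-fold rule called 2 higher and 3 lower and left 20 under it, beside 3.72% higher and 5.33% lower among the detected named genes, with a median log2 difference of 0.16. Atp1b1, the beta subunit of the sodium-potassium pump that maintains the gradients channels draw on, had 430 in EB and 2000 in ES, 4.65-fold lower. Sgk1, a kinase that raises the surface number of several channels, had 3664 in EB and 8806 in ES, 2.40-fold lower. Nedd4l, the ubiquitin ligase that Sgk1 restrains, had 574 in EB and 1231 in ES, 2.14-fold lower.

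Both higher genes of that list form large pores. Panx1, a channel for ATP and other small molecules, had 670 in EB and 330 in ES, 2.03-fold higher. Gjb2, which encodes a connexin of gap junctions, had 333 in EB and 146 in ES, under the floor, at least 1.45-fold higher. The connexin gene Gjc1 did not pass the rule, with 1151 in EB and 1321 in ES, and the channel of lysosomes Tpcn1 had 3964 in EB and 2162 in ES, a log2 difference of 0.87. Atp2a2 and Atp2b1, pumps that clear calcium from the cytosol, had differences of 0.23 and 0.03.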

How the data were processed

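Total RNA of 1 ES and 1 EB sample was read on 1 bead array each. The deposited values are signal intensity, the mean over a probe's beads, made by the authors with BeadStudio 2.3.41 and no normalization, per the file headers, although both sample titles call the data normalised; the submitters' processing notes also name RMA and limma without a role. The deposited bead spread fell with the number of beads with a log-scale slope of -0.47 in EB and -0.44 in ES, so it was taken for the bead mean's standard error. A deposited detection score accompanies EB alone. The deposited series value table is also intensity on a linear scale, close to quantile normalized, by a method that is not stated. For Piezo1 it held 1208 in EB and 2195 in ES, beside normalized signals of 1390 and 2378, a like amount lower in both. Bright probes of other members did the same, as after background subtraction. The series value table served as an alternative.

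Intensities were quantile normalized over both arrays (Python 3.11.15, numpy 2.4.6) and log2 transformed with no background subtracted, which shrinks differences of dim probes; the procedure was tested on simulated data. Target identifiers with a zero-padded number of at least 10000 were matched as NCBI Gene numbers: 9793 of 11857 such probes (82.6%) matched the RefSeq gene table of GRCm38.p6. The probe with the highest mean log2 signal stood for a gene. Folds with 1 signal under the floor are "at least" bounds against the floor. Brightness served only to choose probes and the genes to name, since signals of different probes are not comparable levels. Of the genes that fit the name rule 2 are not reported here and were left out of every count. Over 391 genes with 2 detected probes, the difference between the probes' log2 differences had a standard deviation of 0.40. The text names members past the 2-fold rule, those above the floor in both samples that differ by about 1.5-fold, the brightest of each family, those with several detected probes, a preset group, and partner genes past the rule; other members and partner genes were named after their values were seen. Members and lists were chosen with earlier results of these data known. Alternatives covered scaling, background (limma 3.58.1, offset 50), floor, detection, probe choice and size rule.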

Additional observations from a re-analysis of the deposited data

How the results depend on the processing

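No paired analysis was possible because there was 1 sample per group, so none could be left out either. The 2 members past the 2-fold rule, both higher, stayed within 1.5 times, at 2 to 3, under 5 other settings: no quantile normalization, normexp background, the mean over probes, no detection filter and a bead-error limit. The mean over probes could remove neither gene, since each has 1 probe. The same holds for a demand, chosen after seeing the data, that every probe of a gene pass. Dropping the detection filter removes no gene, and no undetected member passed the rule. The bead-error limit could not remove them either, as both differences far exceed their bead-level errors. Normexp background takes off signal shared by both samples and gave a larger absolute difference for every detected member. It was therefore no real challenge to either gene. Of those settings, only no quantile normalization could have removed them. With signals set to the floor 1 was left (Clic6). The series value table gave 6 (4 higher, 2 lower), beside 25.7% of detected named genes, and a median of 0.57. It added Cacna2d2, Chrna4, Ryr1 and Kcnk5. Its differences near background are larger than those of the main values, from which no background was subtracted. Genes above the floor in both samples gave 1 (Clic6) and a median of 0.42. A 1.5-fold rule gave 7 (beside 24.3%), a 4-fold rule 0 (beside 1.63%) and the reported pore-forming members alone 0. The number above the floor was 22 in EB and 25 in ES at a detection score of 0.95, and 4 in EB and 6 in ES for pore-forming members alone. Apart from the series table and the fold rules, no share of all named genes was worked out under other settings. The counts there, those at the 0.95 score among them, have no comparison. Of 75 gene values under 5 other settings 1 changed sign, that of P2rx6 (0.25 with the mean over probes). Many of the 75 could not change sign. Setting signals to the floor cannot reverse a difference, and the mean over probes leaves genes with 1 probe as they were. The number of arrays limits the precision.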

Other observations

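Genes beside Clic6 and Kcnmb4 in the RefSeq order were looked up, within 2 protein-coding genes on either side. Most had no value, since Rcan1 and Setd4 near Clic6, and Taf7l2, Ptprb and Myrfl near Kcnmb4, were not named on the array. Next to Clic6 lies Runx1, a transcription factor of early blood formation, with a signal of 342 in EB and 179 in ES, under the floor, at least 1.49-fold higher. Kcne1, a potassium channel subunit gene on the other side of Clic6, was under the floor at 164 in EB and 173 in ES. Next to Kcnmb4, Cnot2 had 2339 in EB and 2457 in ES. Beside these values, 3 of 4 named endothelial and blood genes were higher in EB by the 2-fold rule, Lmo2, Hba-x and Nfe2, and Pecam1 was lower; the part of blood cells in the Clic6 value was not tested.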
